A study of Mus musculus with 30 samples.

Results

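Fetal livers of 5 litters exposed to perfluorooctane sulfonate (PFOS) at 10 mg/kg/day were compared with fetal livers of 5 control litters at 0 mg/kg/day. PFOS is a persistent fluorinated surfactant. These 10 arrays were selected by the dose and tissue in their labels out of the 30 arrays of the series, and all their probe sets were considered. In both groups the dams were CD-1 mice, an outbred stock, gavaged daily on gestation days 1 to 17. The potassium salt of PFOS was given in 0.5% Tween 20, and a portion of the liver was taken on gestation day 18. Each array carries RNA pooled from 3 fetuses of 1 litter, so n counts litters, and differences between fetuses of a litter are averaged out. The p-values below measure the spread between litters. A further 5 liver arrays at 5 mg/kg/day share the fitted estimate of that spread and are described beside the others near the end.

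Near term the liver is still a blood-forming organ while its hepatocytes already secrete most plasma proteins, among them clotting factors, complement lectins, protease inhibitors and apolipoproteins. Hepatocytes also convert cholesterol to bile acids, a pathway that opens with the hydroxylase Cyp7a1, and move bile acids, sterols and other anions through uptake carriers and export pumps. Perfluoroalkyl acids such as PFOS are known in rodent liver as activators of the fatty acid receptor PPARα and of the xenobiotic receptors CAR and PXR, whose targets include fatty acid oxidation enzymes and drug-metabolizing enzymes.

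Expression was measured on Affymetrix mouse 430_2 arrays and is given as the deposited log2 level, so a difference of 1 is a change by a factor of 2. Marker genes matched the labelled tissue. The mean log2 level over 11 hepatocyte markers lay between 12.4 and 12.6 in the 10 mg/kg/day litters, against 12.5 to 12.7 in the control litters, while 5 control lung arrays of the series lay between 7.73 and 9.18. The mean over 8 lung epithelium markers was 4.56 to 4.94 in the exposed livers and 4.64 to 5.12 in the control livers, against 10.5 to 10.8 in control lung. Replicates of a group correlated with Pearson coefficients between 0.990 and 0.993 over all probe sets.

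Some litters stood apart in genes of neighbouring tissues. Control litters 2, 3 and 5 had high levels of Cym, the gene of chymosin, a protease of the stomach. Its log2 level was 5.26, 5.35, 5.32, 4.23 and 5.04 in exposed litters 1 to 5, against 5.05, 11.27, 9.50, 5.28 and 8.20 in control litters 1 to 5. Anxa10, a gastric epithelial annexin, was at 2.18 to 2.89 in the exposed litters, against 5.38, 3.87 and 3.65 in control litters 2, 3 and 5 and 2.36 and 2.22 in control litters 1 and 4. Over 22 stomach markers the mean log2 level was 4.54 to 4.78 in the exposed litters and 4.58 to 5.62 in the control litters. Gkn1, a gastric mucosal gene, was dim throughout, at 3.97 to 4.29 in all 10 livers, so that its level does not tell the litters apart. Pancreatic enzyme genes were high in a partly different set of litters. Cela2a, an elastase, was at 3.35 to 4.84 in the exposed litters, against 5.82, 5.22, 6.36 and 5.23 in control litters 2 to 5 and 3.27 in control litter 1. Over 18 exocrine pancreas markers the mean was 4.75 to 5.09 in the exposed litters and 4.68 to 5.59 in the control litters. The pancreatic factor Ptf1a was at 2.84 to 3.21 in all 10, again too dim to tell the litters apart. Exposed litter 5 stood apart in the cornified-envelope genes Lor, at 7.38, and Sprr3, at 6.54, and it lay above the other exposed and control litters in both genes. The part of these tissues in the results was not tested as such. The counts below are given also from a fit without control litters 2, 3 and 5, which keeps 2 control litters and so makes fewer calls by construction.

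**Figure D1:**
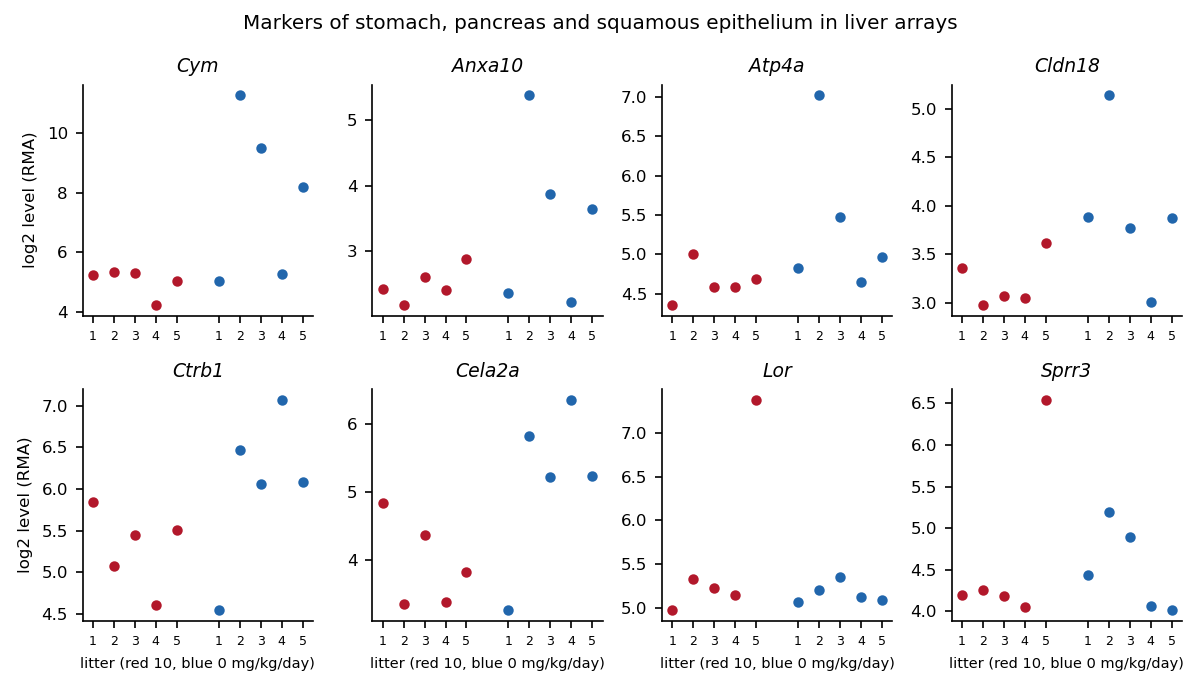
Log2 levels (vertical axes) of 8 marker genes of stomach (Cym, Anxa10, Atp4a, Cldn18), exocrine pancreas (Ctrb1, Cela2a) and squamous epithelium (Lor, Sprr3) in the 5 exposed litters (red, left) and the 5 control litters (blue, right), 1 point per litter. Control litters 2, 3 and 5 stand above the others in Cym and Anxa10, and exposed litter 5 stands above the others in Lor and Sprr3.

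The fall at 10 mg/kg/day was broad and mostly shallow, and the rises included larger changes. Of 13269 genes tested, 692 (5.22%) were lower and 703 (5.3%) were higher in the 10 mg/kg/day litters than in the controls, at a limma adjusted p under 0.05 (Benjamini-Hochberg over all genes tested). Such genes are called lower or higher here. Over all 27901 probe sets above the same filter, 917 (3.29%) were called lower and 1124 (4.03%) higher. The median log2 change was -0.37 among the genes called lower, 0.45 among those called higher and -0.02 over all genes tested. A fall of at least 1 on the log2 scale was seen for 22 genes and of at least 2 for 1 gene, Cym, whereas 98 genes rose by at least 1 and 17 by at least 2. All 5 exposed litters lay below the control mean for 680 of the genes called lower. The 2 groups did not overlap for 438 of them, beside 585 (4.41%) of all genes tested that did not overlap in that direction. Without control litters 2, 3 and 5, 176 genes were called lower and 364 higher; 159 and 346 of these were among the original calls, and all 692 and 703 kept their direction. Leaving out exposed litter 3 gave 455 genes called lower. In these bulk samples, fewer cells of a type and less RNA per cell cannot be told apart.

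**Figure D2:**
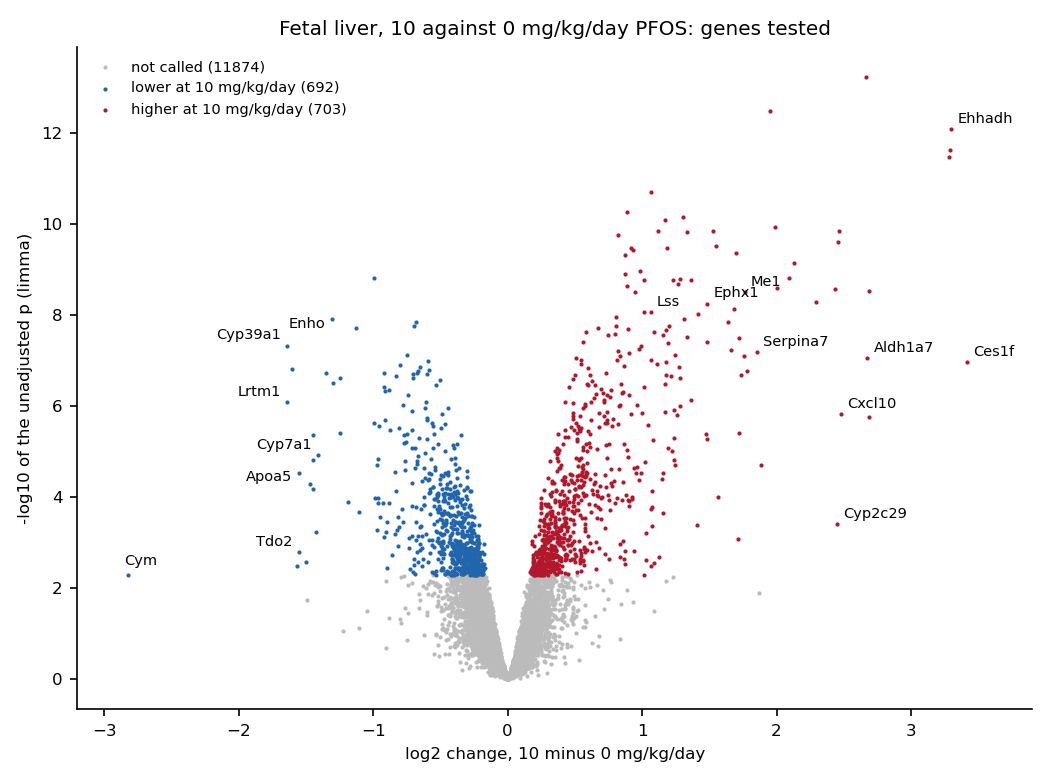
Log2 change, 10 minus 0 mg/kg/day (horizontal axis), against −log10 of limma's unadjusted p (vertical axis) for the 13269 genes tested, with genes called lower in blue, genes called higher in red and the rest in grey. The 692 falls reach past -1 for 22 genes, while 98 of the 703 rises lie beyond 1.

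Of 36 gene lists that cover liver functions, 912 distinct genes were tested, and 117 of them (12.8%) were called lower and 123 (13.5%) higher. When control litters 2, 3 and 5 were left out, these counts were 35 and 81, and with the stomach marker level as a covariate 69 and 92. The lists were drawn up with earlier results of these data known, so that their counts describe the response and test nothing about the lists. Another 575 genes called lower and 580 called higher stood on none of them. The counts of each list below are to be read beside the shares of all genes tested, 5.22% lower and 5.3% higher. For the fit without control litters 2, 3 and 5, the counts over all 13269 genes were 176 lower and 364 higher.

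**Figure D3:**
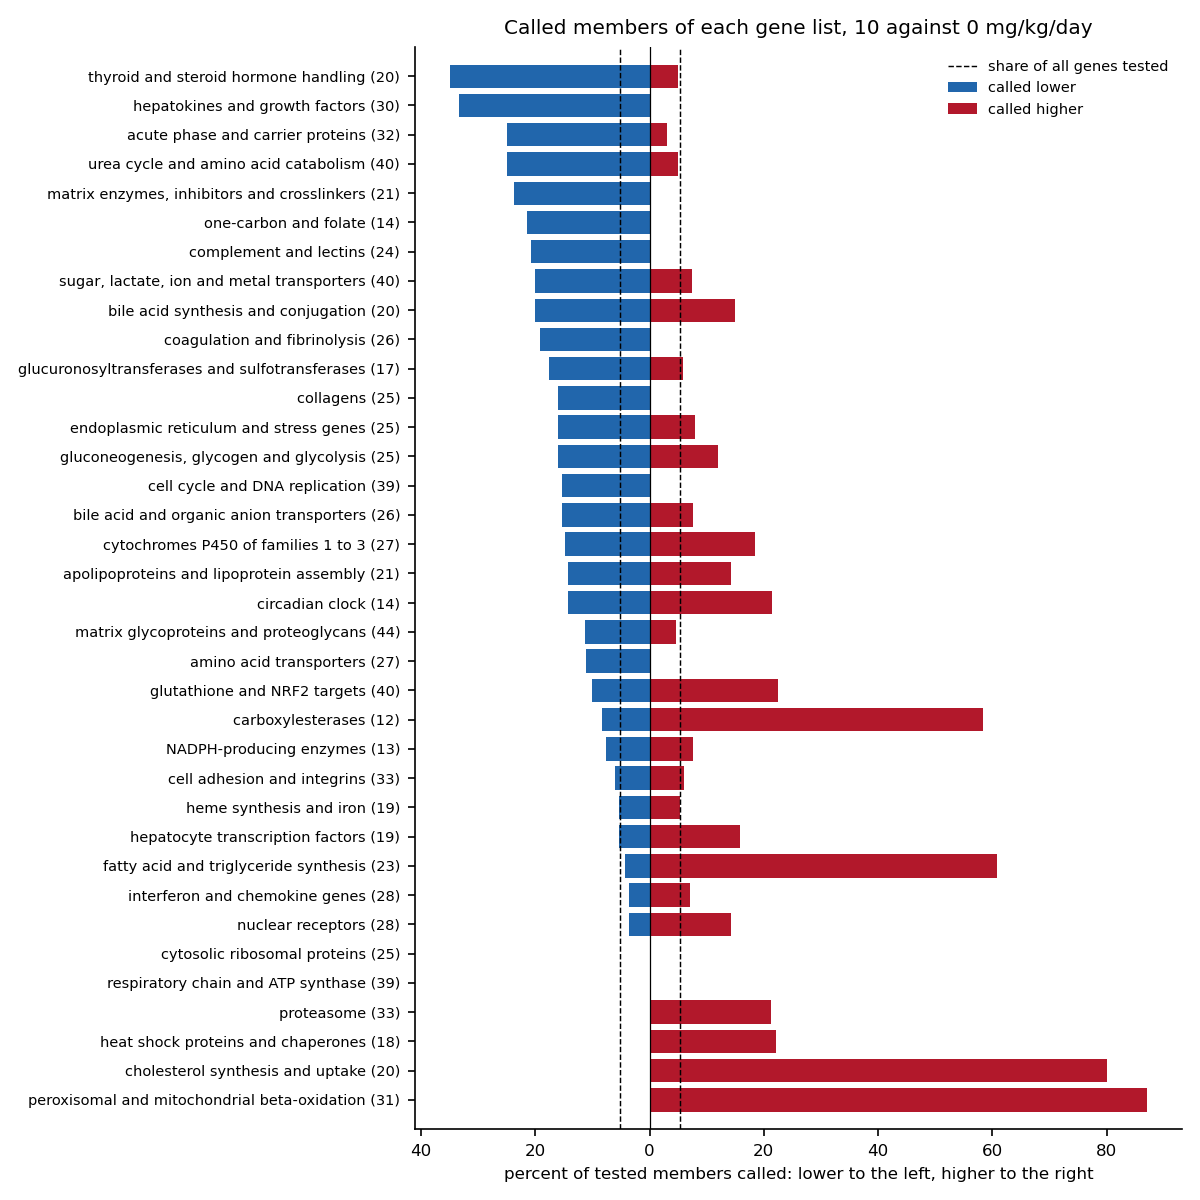
Percent of the tested members of each gene list called lower (blue, to the left) and higher (red, to the right) at 10 against 0 mg/kg/day, with the number of members tested in brackets. Dashed lines mark the share of all genes tested, 5.22% lower and 5.3% higher. Lists of hormone handling genes, hepatokines, carrier proteins and amino acid enzymes extend furthest to the left, while beta-oxidation and cholesterol synthesis extend furthest to the right.

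Genes of bile acid synthesis moved in both directions. Of 20 tested members, 4 fell and 3 rose, and without control litters 2, 3 and 5 the counts were 2 and 2. Of the falls, 3 were hydroxylases of the sterol nucleus or side chain. Cyp7a1, the rate-limiting enzyme of the classic pathway, was at 8.73, 7.58, 8.28, 8.82 and 8.43 in exposed litters 1 to 5, against 9.52, 9.55, 10.01, 10.40 and 9.41 in control litters 1 to 5. Every exposed litter was below every control litter, exposed litter 2 was lowest, and the fit gave a log2 change of -1.41 (SE 0.22, adjusted p = 0.000625). Cyp39a1, which hydroxylates 24-hydroxycholesterol, was at 6.94, 6.74, 7.06, 6.51 and 6.89 in the exposed litters, against 8.07, 8.27, 8.72, 8.84 and 8.44 in the controls. Its groups were further apart than their spread, with a log2 change of -1.64 (SE 0.17, adjusted p = 9.26e-06). Cyp27a1, the side-chain hydroxylase that opens the alternative pathway, averaged 8.49 ± 0.21 in the exposed litters and 9.11 ± 0.27 in the controls (SD, n = 5 each). This was a log2 change of -0.62 (SE 0.13, adjusted p = 0.00399), without overlap. With control litters 2, 3 and 5 removed, its adjusted p was 0.0661, within a range of 0.00186 to 0.0661 over 24 alternative settings, and averaging the probe sets of the gene gave a change of -0.32.

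Akr1c6, a hydroxysteroid dehydrogenase of the aldo-keto reductase family, also fell, with a log2 change of -0.92 (SE 0.22, adjusted p = 0.0138), but its groups overlapped. Exposed litters 1 and 3 were at 9.49 and 9.63, above control litter 3 at 9.46. The adjusted p of this gene was 0.345 when the lung arrays were added to the fit and shared 1 estimate of the spread (both tissues in the fit), 0.121 without control litters 2, 3 and 5 and 0.0597 with the stomach covariate, in a range of 0.00615 to 0.345 over 24 settings. The added lung arrays left each change as it was and altered only its SE. Among the 3 rises were peroxisomal enzymes. Hsd17b4, the multifunctional enzyme that shortens bile acid side chains and very long fatty acids, averaged 10.08 ± 0.23 in the exposed litters and 9.18 ± 0.08 in the controls, a change of 0.90 (adjusted p = 1.22e-05). Slc27a2, which activates very long fatty acids and bile acid precursors with coenzyme A, averaged 12.12 ± 0.20 in exposed litters and 11.27 ± 0.18 in controls, a change of 0.84 (adjusted p = 3.67e-05).

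Among transporters, falls outnumbered rises. Of 26 tested bile acid and organic anion transporters, 4 fell and 2 rose; without control litters 2, 3 and 5 the counts were 1 and 1, and leaving out 1 litter at a time gave 1 fall (without control litter 2) to 4. Slco1a1, a basolateral carrier that takes up organic anions and steroid conjugates, was at 6.05, 5.43, 5.85, 5.09 and 5.61 in the exposed litters, against 6.59, 6.21, 6.75, 6.68 and 6.65 in the controls. The litters did not overlap, with the nearest pair 6.05 in exposed litter 1 and 6.21 in control litter 2, and the fit gave a log2 change of -0.97 (SE 0.16, adjusted p = 0.000944). Abcg5, a half-transporter that exports sterols to bile, was at 4.34, 4.10, 4.16, 4.63 and 4.48 in the exposed litters, against 4.64, 5.65, 5.49, 4.76 and 5.24 in the controls. Control litters 2, 3 and 5 were the highest of the controls, and the change was -0.82 (SE 0.21, adjusted p = 0.0192). Without those 3 litters it was -0.36 (adjusted p = 0.464) and with the stomach covariate -0.49 (adjusted p = 0.135). The adjusted p was also 0.053 with the pancreas covariate, 0.05013 without exposed litter 3 and 0.0535 without control litter 2, and ran between 0.00146 and 0.464 over 23 settings. Slc22a5, the carnitine transporter, rose, with 7.62 ± 0.21 in the exposed litters and 6.79 ± 0.08 in the controls and a change of 0.82 (adjusted p = 1.13e-05).

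Of 27 amino acid transporters tested, 3 fell and none rose, with 1 fall without control litters 2, 3 and 5. Slc6a12, which carries betaine and GABA, was at 5.96, 5.75, 6.28, 5.93 and 5.54 in the exposed litters, against 6.65, 6.97, 6.96, 6.75 and 6.72 in the controls. The groups stood clearly apart, with a log2 change of -0.92 (SE 0.11, adjusted p = 4.14e-05). Slc38a1, a carrier of glutamine and other neutral amino acids, averaged 6.52 ± 0.10 in the exposed litters and 6.89 ± 0.14 in the controls, a change of -0.37 (adjusted p = 0.0117). For this gene the adjusted p was 0.127 without control litters 2, 3 and 5 and ran between 0.00493 and 0.127 over 24 settings. Of 40 transporters of sugars, organic acids, ions and metals, 8 fell and 3 rose; the counts were 3 and 1 without control litters 2, 3 and 5, and 5 fell without exposed litter 3 or without control litter 2. Slc13a3, a dicarboxylate carrier, averaged 7.79 ± 0.35 in the exposed litters and 8.60 ± 0.33 in the controls, a change of -0.81 (adjusted p = 0.00931), which was -0.36 when the probe sets of the gene were averaged. Slc37a4, which brings glucose 6-phosphate into the endoplasmic reticulum for the last step of glucose release, was at 9.78, 9.65, 9.71, 9.61 and 9.81 in the exposed litters, against 10.16, 10.29, 10.41, 10.43 and 10.27 in the controls. The spread within each group was small beside the gap, and the fit gave a log2 change of -0.60 (SE 0.08, adjusted p = 0.000154). Slc16a12, a creatine carrier, changed by -0.52 (adjusted p = 0.0146), with an overlap of exposed litter 1 (7.68) and control litters 1 and 5 (both 7.65). The call missed the threshold at an adjusted p of 0.132 without control litters 2, 3 and 5, in a range of 0.00167 to 0.132 over 24 settings. Slc23a2, which takes up ascorbate, rose, with 7.70 ± 0.32 in the exposed litters and 6.73 ± 0.27 in the controls and a change of 0.96 (adjusted p = 0.00105).

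Among genes of secreted plasma proteins, falls outnumbered rises and most changes were small. Of 26 genes of coagulation and fibrinolysis, 5 fell and none rose, and the changes of the 26 lay between -0.50 and -0.01 on the log2 scale, with a median of -0.16 beside -0.02 over all genes tested. Without control litters 2, 3 and 5, 1 of them was called lower. Klkb1, plasma prekallikrein of the contact pathway, was at 9.79, 9.24, 9.47, 9.58 and 9.44 in the exposed litters, against 10.0, 9.92, 10.09, 10.12 and 9.90 in the controls, with a log2 change of -0.50 (SE 0.09, adjusted p = 0.00159). F5, the cofactor of prothrombin activation, averaged 9.52 ± 0.23 in the exposed litters and 10.01 ± 0.15 in the controls, a change of -0.49 (adjusted p = 0.00728). Pros1, the anticoagulant protein S, averaged 6.08 ± 0.07 in the exposed litters and 6.43 ± 0.10 in the controls, a change of -0.35 (adjusted p = 0.00196). None of these 3 genes had overlapping groups. In a fit that left out control litters 2, 3 and 5, the adjusted p was 0.0668 for F5 and 0.0731 for Pros1, and with both tissues in the fit it was 0.316 for F5. Over 24 settings F5 ran between 0.00333 and 0.316, and Pros1 between 0.000178 and 0.0731.

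Of 24 complement and lectin genes, 5 fell and none rose, with 2 falls without control litters 2, 3 and 5 and 3 without control litter 2 alone. Mbl2, mannose-binding lectin C, recognises microbial sugars and starts the lectin pathway. It was at 8.88, 8.79, 8.66, 8.73 and 8.99 in the exposed litters, against 10.14, 10.07, 10.34, 10.10 and 9.65 in the controls. The exposed litters lay within a narrow band well below the lowest control, and the fit gave a log2 change of -1.25 (SE 0.15, adjusted p = 2.90e-05). Colec10, a related collectin, averaged 8.0 ± 0.21 in the exposed litters and 8.46 ± 0.18 in the controls, a change of -0.45 (adjusted p = 0.011), with overlap. With both tissues in the fit the adjusted p was 0.0849 for Mbl2 and 0.431 for Colec10, and for Colec10 it was 0.118 without control litters 2, 3 and 5 and 0.0669 with the stomach covariate. The ranges over 24 settings were 1.67e-05 to 0.0849 for Mbl2 and 0.0036 to 0.431 for Colec10.

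Of 32 acute phase and carrier proteins, 8 fell and 1 rose, with 3 and 1 without control litters 2, 3 and 5. Serpina1c, a mouse paralogue of the elastase inhibitor alpha-1-antitrypsin, was at 12.80, 12.76, 12.81, 12.56 and 12.60 in the exposed litters, against 13.24, 13.24, 13.24, 13.18 and 13.14 in the controls. The controls spanned 0.10 on the log2 scale and lay above every exposed litter, with a log2 change of -0.50 (SE 0.06, adjusted p = 3.22e-05). Probes for this gene may also catch its near-identical paralogues. Itih4, an acute phase protein of the inter-alpha-trypsin inhibitor family, averaged 11.50 ± 0.14 in the exposed litters and 11.92 ± 0.07 in the controls, a change of -0.42 (adjusted p = 0.000735). With both tissues in the fit the adjusted p was 0.637 for Serpina1c and 0.659 for Itih4, while over all 24 settings it ran from 1.35e-06 and from 5.40e-05 up to these values. The changes in that fit were still -0.50 and -0.42, but the SE of Serpina1c was 0.55 with the lung arrays included.

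The 2 largest falls on that list were uneven between litters. Mug1, murinoglobulin 1, a broad protease inhibitor of rodent plasma, was at 5.96, 4.39, 3.46, 5.53 and 3.76 in the exposed litters, against 5.75, 6.87, 6.80, 5.44 and 6.08 in the controls. The groups overlapped, since exposed litters 1 and 4 were as high as control litters 1 and 4, and the fit gave a log2 change of -1.57 (SE 0.45, adjusted p = 0.0364). Azgp1, zinc-alpha-2-glycoprotein, was at 8.67, 6.64, 8.19, 8.45 and 6.59 in the exposed litters, against 9.70, 9.14, 8.97, 9.08 and 9.14 in the controls. Exposed litters 2 and 5 were far below the other exposed litters, and the fit gave a log2 change of -1.50 (SE 0.42, adjusted p = 0.0328). Both calls depended on single litters. For Mug1 the adjusted p was 0.0655, 0.0988 and 0.094 without exposed litter 2, 3 or 5 and 0.0919, 0.0835 and 0.0596 without control litter 2, 3 or 5. For Azgp1 it was 0.0732 and 0.0854 without exposed litter 2 or 5 and 0.0748, 0.0593, 0.0549 and 0.0559 without control litter 1, 2, 4 or 5. Without control litters 2, 3 and 5 together the changes were -0.98 (adjusted p = 0.453) for Mug1 and -1.68 (adjusted p = 0.175) for Azgp1. Over 24 settings the adjusted p ran between 0.00985 and 0.453 for Mug1, missing the threshold in 13, and between 0.0145 and 0.175 for Azgp1, missing it in 9. The carrier that rose was Serpina7, thyroxine-binding globulin, at 9.74, 9.43, 9.64, 10.02 and 9.80 in the exposed litters, against 7.43, 7.36, 8.49, 8.28 and 7.78 in the controls. Every exposed litter was above every control litter, with a log2 change of 1.86 (SE 0.20, adjusted p = 1.22e-05).

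Apolipoproteins and lipoprotein assembly genes divided evenly, with 3 falls and 3 rises among 21 tested, and 2 and 3 without control litters 2, 3 and 5. Apoa5, which promotes the clearance of triglyceride-rich lipoproteins, was at 8.55, 7.33, 8.05, 9.05 and 8.49 in the exposed litters, against 9.64, 9.79, 10.68, 9.55 and 9.56 in the controls. Exposed litter 2 was lowest and control litter 3 highest, the groups did not overlap, and the fit gave a log2 change of -1.55 (SE 0.27, adjusted p = 0.00129). Apof, an inhibitor of cholesteryl ester transfer in human plasma, was at 11.64, 11.44, 11.44, 11.53 and 11.37 in the exposed litters, against 12.08, 12.09, 12.04, 12.10 and 12.06 in the controls. The controls were nearly equal to each other, and the change was -0.59 (adjusted p = 1.67e-05). With both tissues in the fit its adjusted p was 0.165, in a range of 1.06e-06 to 0.165 over 24 settings. The rises included lipid transfer proteins. Pltp, which moves phospholipid between lipoproteins, averaged 10.17 ± 0.18 in the exposed litters and 8.41 ± 0.23 in the controls, a change of 1.76 (adjusted p = 1.40e-05). Mttp, which loads triglyceride onto apolipoprotein B, averaged 9.93 ± 0.30 in the exposed litters and 8.86 ± 0.14 in the controls, a change of 1.07 (adjusted p = 1.58e-05).

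Promoter sequences are shown for 4 of the genes that fell, to set the sequence before the start of genes that moved together side by side. They are Apoa5, Slco1a1, Mbl2 and Rdh16f2, a retinol dehydrogenase whose log2 level was 5.16, 4.20, 4.59, 4.49 and 3.99 in the exposed litters, against 5.13, 5.62, 6.93, 6.19 and 5.91 in the controls. Exposed litter 1 overlapped the lowest control for Rdh16f2, and its change was -1.47 (SE 0.27, adjusted p = 0.00189). The 4 were chosen after their values were seen. Each run holds the 250 bases before the annotated start, 5′ to 3′ on the strand of the gene, from RefSeq on GRCm38.p6. They lie at chr9:46268358-46268607 on the plus strand for Apoa5, chr10:127866226-127866475 on the plus strand for Rdh16f2, chr6:141946963-141947212 on the minus strand for Slco1a1 and chr19:30232678-30232927 on the plus strand for Mbl2. Capitals mark matches on either strand to a TATA box (TATAAA) or an E-box (CACGTG).
Apoa5: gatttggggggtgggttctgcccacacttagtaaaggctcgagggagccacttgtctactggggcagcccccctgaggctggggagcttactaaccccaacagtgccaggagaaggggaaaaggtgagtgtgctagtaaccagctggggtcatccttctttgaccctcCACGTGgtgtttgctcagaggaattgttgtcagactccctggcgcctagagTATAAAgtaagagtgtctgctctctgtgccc
Rdh16f2: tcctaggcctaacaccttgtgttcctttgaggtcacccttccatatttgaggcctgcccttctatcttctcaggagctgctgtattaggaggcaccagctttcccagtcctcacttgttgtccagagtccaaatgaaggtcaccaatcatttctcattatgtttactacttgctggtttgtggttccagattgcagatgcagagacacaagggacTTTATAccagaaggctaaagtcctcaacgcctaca
Slco1a1: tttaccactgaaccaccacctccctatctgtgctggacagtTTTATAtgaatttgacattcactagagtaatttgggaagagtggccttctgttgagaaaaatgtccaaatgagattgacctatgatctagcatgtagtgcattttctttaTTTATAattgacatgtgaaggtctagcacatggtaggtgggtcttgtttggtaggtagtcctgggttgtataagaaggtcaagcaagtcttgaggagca
Mbl2: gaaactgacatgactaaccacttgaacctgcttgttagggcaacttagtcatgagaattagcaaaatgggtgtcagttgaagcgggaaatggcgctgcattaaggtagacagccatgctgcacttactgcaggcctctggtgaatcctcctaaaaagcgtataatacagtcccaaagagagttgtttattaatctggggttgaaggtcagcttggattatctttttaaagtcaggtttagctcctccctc
Apoa5 has the E-box letters at bases -82 to -77 and the TATA letters at -31 to -26, counted back from the start. Rdh16f2 has the TATA letters on the other strand at -35 to -30, Slco1a1 has them on the other strand at -209 to -204 and -99 to -94, and Mbl2 has neither motif. Over promoters of 300 bases, 250 before and 50 after the start, TATAAA was found in 14.3% of 537 genes called lower, 9.79% of those called higher and 9.67% of all 10687 tested genes with an entry. The E-box was found in 9.5% of the genes called lower, 12.9% of those called higher and 11.4% of all. The core TGACNNNGC of the antioxidant response element was found in 15.1%, 15.1% and 16.8% of the same groups. A direct repeat of AGGTCA with 1 base between the copies is the form bound by PPARα in textbook examples. It was in none of the genes called lower or higher and in 5 (0.0468%) of all. So rare an exact match cannot tell the groups apart. Motifs were searched on both strands, and matches of different motifs may overlap. Of the 20 largest falls, 13 had an entry, and 4 of these held TATAAA. A match describes letters, not a bound site.

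Liver-derived hormones and growth factors held 10 falls and no rise among 30 tested genes, with 3 falls without control litters 2, 3 and 5. Of the 30, 22 had a negative change, the highest change was 0.67, and leaving out 1 litter at a time gave 0 or 1 rise. Enho encodes the precursor of adropin, a peptide linked to glucose and lipid balance. It was at 6.64, 6.52, 6.86, 6.67 and 6.43 in the exposed litters, against 7.69, 7.97, 8.0, 7.95 and 8.05 in the controls. The gap between the groups was several times the spread within them, with a log2 change of -1.31 (SE 0.12, adjusted p = 3.48e-06), and averaging its probe sets gave -0.79. Fst, follistatin, binds and blocks activins. It was at 5.82, 5.54, 5.44, 5.28 and 5.40 in the exposed litters, against 6.02, 6.46, 6.62, 6.43 and 6.15 in the controls, with a log2 change of -0.84 (SE 0.14, adjusted p = 0.00126). Gpc3, a glypican of the fetal hepatocyte surface, was at 9.77, 9.49, 9.18, 8.98 and 9.44 in the exposed litters, against 10.29, 9.97, 10.38, 9.95 and 10.10 in the controls. The lowest control was above the highest exposed litter for both genes, and Gpc3 changed by -0.77 (adjusted p = 0.00117). Igf2, the main fetal insulin-like growth factor, averaged 12.03 ± 0.08 in the exposed litters and 12.34 ± 0.12 in the controls, a smaller change of -0.32 (adjusted p = 0.0056). In the fit without control litters 2, 3 and 5, the adjusted p was 0.0544 for Fst and 0.107 for Igf2, and with both tissues in the fit it was 0.0748 for Igf2. Their ranges over 24 settings were 0.000189 to 0.0544 and 0.00124 to 0.107.

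Genes that handle thyroid and steroid hormones or receive hormones and cytokines held the highest share of falls among the 36 lists. Of 20 tested, 7 fell and 1, Serpina7, rose; without control litters 2, 3 and 5 the counts were 4 and 1. Hsd11b1, which regenerates active glucocorticoid from its inert keto form, was at 10.12, 9.59, 9.74, 9.92 and 9.65 in the exposed litters, against 10.83, 10.98, 11.09, 10.90 and 10.86 in the controls. No exposed litter came near the controls, with a log2 change of -1.13 (SE 0.11, adjusted p = 4.85e-06). Hsd3b2, a member of the 3-beta-hydroxysteroid dehydrogenase family, was at 5.48, 4.44, 5.0, 4.73 and 5.02 in the exposed litters, against 6.28, 6.40, 6.51, 6.24 and 5.99 in the controls. Exposed litter 1 was highest among the exposed and still below every control, and the fit gave a log2 change of -1.35 (SE 0.15, adjusted p = 2.48e-05).

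Among receptors, Il6ra, which binds interleukin 6, was at 6.21, 5.81, 6.03, 5.53 and 5.76 in the exposed litters, against 6.53, 6.71, 7.05, 6.79 and 6.66 in the controls. Its groups did not overlap, and it changed by -0.88 (adjusted p = 0.000223). Egfr, the receptor of epidermal growth factor, was at 8.09, 7.70, 7.96, 7.72 and 8.06 in the exposed litters, against 8.50, 8.66, 8.80, 8.55 and 8.33 in the controls. It changed by -0.66 (adjusted p = 0.000308), again without overlap, and by -0.34 when its probe sets, of which at least 1 had the opposite sign, were averaged. Esr1, oestrogen receptor alpha, was at 5.80, 4.95, 5.47, 5.49 and 4.77 in the exposed litters, against 6.18, 6.01, 6.65, 6.12 and 6.33 in the controls. The exposed litters ranged widely below the controls, with a change of -0.96 (adjusted p = 0.00381). Without control litters 2, 3 and 5 its adjusted p was 0.0966, in a range of 0.000546 to 0.0966 over 23 settings.

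**Figure D4:**
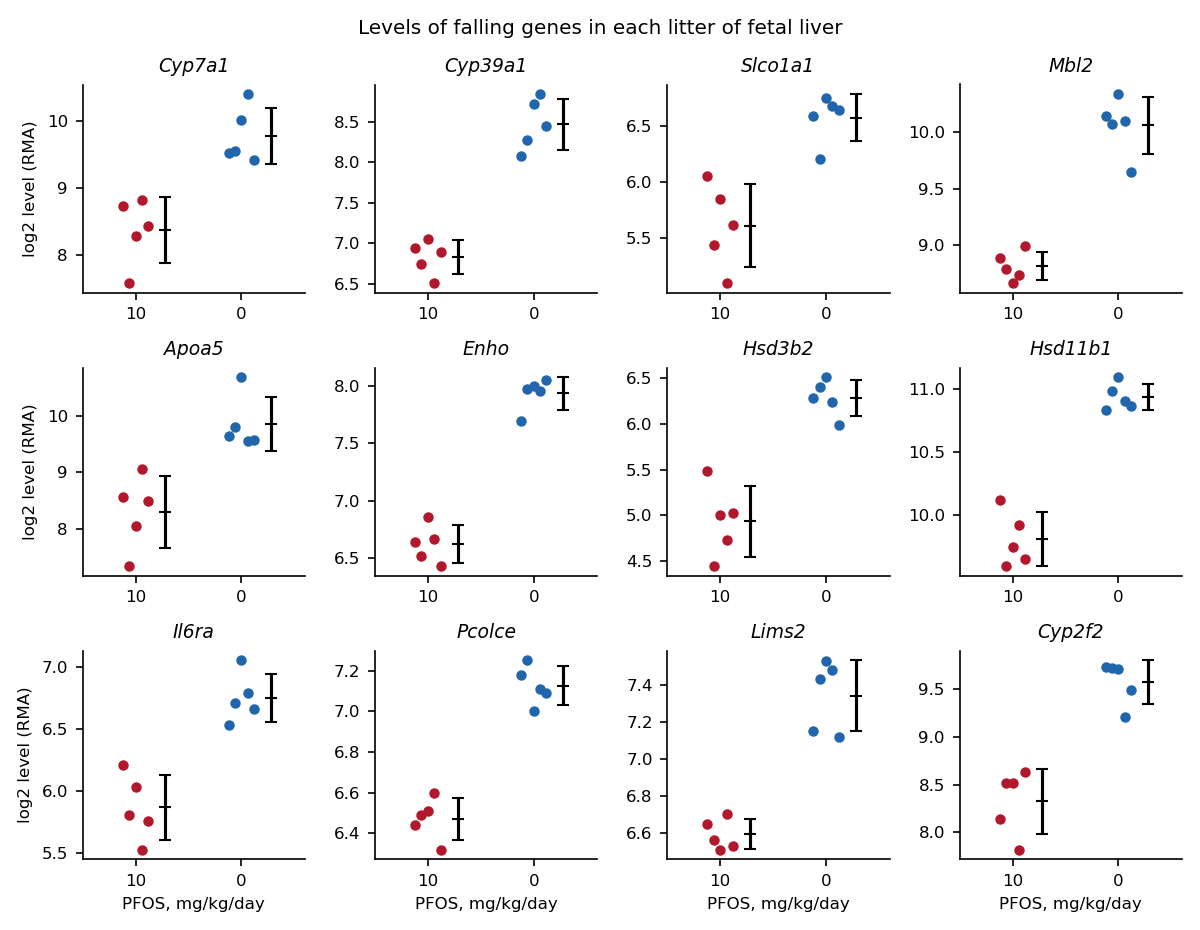
Log2 level (vertical axes) of 12 genes that fell, with 1 point per litter at 10 mg/kg/day (red, left) and 0 mg/kg/day (blue, right) and the group mean ± SD beside the points (n = 5 each). In each of the 12 panels all exposed litters lie below all control litters.

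Matrix genes fell in small numbers. Of 25 collagens 4 fell and none rose, of 44 matrix glycoproteins and proteoglycans 5 fell and 2 rose, and of 21 matrix enzymes, inhibitors and crosslinkers 5 fell and none rose. Over all genes tested, 5.22% fell and 5.3% rose. When control litters 2, 3 and 5 were left out, the falls numbered 0, 1 and 1, beside 176 of all 13269 genes. Leaving out exposed litter 3 or control litter 3 left 2 collagens called lower, and leaving out exposed litter 2 or control litter 3, 4 or 5 left 3 matrix glycoproteins. The 2 rises among glycoproteins, a share close to that of all genes tested, were 0 or 1 whenever any 1 litter was left out. They were 0 without control litters 2, 3 and 5. Pcolce, which enhances the release of the procollagen C-propeptide, was at 6.44, 6.49, 6.51, 6.60 and 6.32 in the exposed litters, against 7.18, 7.25, 7.0, 7.11 and 7.09 in the controls. Its groups stood apart by several times their spread, with a log2 change of -0.65 (SE 0.07, adjusted p = 2.06e-05). Adamts9, a metalloprotease that cleaves versican, averaged 6.10 ± 0.14 in the exposed litters and 6.56 ± 0.20 in the controls, a change of -0.46 (adjusted p = 0.00553). Lox, lysyl oxidase, which crosslinks collagen and elastin, averaged 6.21 ± 0.16 in the exposed litters and 6.78 ± 0.33 in the controls, a change of -0.56 (adjusted p = 0.0155). Control litter 2 was highest in Lox, at 7.34. With control litters 2, 3 and 5 removed, the adjusted p was 0.0561 for Adamts9 and 0.193 for Lox, whose change was then -0.34. The change of Lox was -0.33 (adjusted p = 0.103) with the stomach covariate and -0.35 (adjusted p = 0.0523) with probe sets averaged. Over 24 settings the adjusted p ran between 0.000835 and 0.0561 for Adamts9 and between 0.00169 and 0.193 for Lox.

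Reln, the secreted glycoprotein reelin, was at 9.18, 9.14, 9.07, 9.08 and 9.0 in the exposed litters, against 9.62, 9.47, 9.59, 9.54 and 9.46 in the controls. The 5 exposed litters were all below the lowest control, with a log2 change of -0.44 (SE 0.06, adjusted p = 9.36e-05), and the change was -0.25 with probe sets averaged. Ecm1, extracellular matrix protein 1, averaged 7.20 ± 0.23 in the exposed litters and 7.72 ± 0.10 in the controls, a change of -0.53 (adjusted p = 0.00282). Col14a1, a fibril-associated collagen, averaged 8.39 ± 0.12 in the exposed litters and 8.74 ± 0.11 in the controls, a change of -0.35 (adjusted p = 0.00921). In a fit that left out control litters 2, 3 and 5, the adjusted p was 0.0804 for Ecm1 and 0.106 for Col14a1, and for Col14a1 it was 0.0829 with probe sets averaged. Their ranges over 24 settings were 0.000638 to 0.0804 and 0.000525 to 0.106. Col4a5, a basement membrane collagen, changed by -0.93 (adjusted p = 0.00371), with overlap at control litter 1 (4.34). Its other probe set moved by 0.31 in the opposite direction, so that the average of both was -0.31 (adjusted p = 0.234). In the fit without control litters 2, 3 and 5, it was -0.56 (adjusted p = 0.209), in a range of 4.14e-05 to 0.234 over 23 settings. Markers of hepatic stellate and perivascular cells, which make matrix in the liver, leaned lower too. These markers include Reln, given above, and the matrix genes Dcn, Col1a1 and Col3a1, so they are no separate readout from the matrix genes. The mean over the 13 markers was 7.03 to 7.33 in the exposed litters and 7.29 to 7.50 in the control litters. Of the 13, 4 fell, with 1 of 13 without control litters 2, 3 and 5. Among the controls, smooth muscle markers, which share Des, Acta2 and Tagln with the stellate markers, were highest in litters 2, 3 and 5. The mean over 8 of them was 5.38 to 5.95 in the exposed litters, with litter 5 highest and above control litter 3. It was 6.14, 5.85 and 6.29 in control litters 2, 3 and 5, and 5.62 and 5.39 in control litters 1 and 4. Of 7 tested, 1 fell, and their median change was -0.37, or 0.07 without control litters 2, 3 and 5. The part of these cells in the matrix changes was not tested.

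Of 33 adhesion genes, 2 fell and 2 rose, shares close to those of all genes tested, with 2 and none without control litters 2, 3 and 5. The rises numbered 0 to 2 when 1 litter at a time was left out, and were fewer than 2 in 9 of the 10 fits. Lims2, an adaptor of integrin adhesion sites, was at 6.65, 6.56, 6.51, 6.70 and 6.53 in the exposed litters, against 7.15, 7.43, 7.53, 7.48 and 7.12 in the controls. The exposed litters lay close together below the lowest control, with a log2 change of -0.75 (SE 0.08, adjusted p = 1.34e-05). Ceacam1, an adhesion molecule of the hepatocyte surface that takes part in insulin clearance, was at 8.26, 8.24, 8.16, 8.25 and 8.25 in the exposed litters, against 8.88, 8.45, 8.58, 8.59 and 8.63 in the controls. Its groups did not overlap, and the change was -0.39 (adjusted p = 0.00209).

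Enzymes of amino acid breakdown and nitrogen disposal fell more often than they rose. Of 40 genes tested, 10 fell and 2 rose; without control litters 2, 3 and 5 the counts were 1 and 0, and without exposed litter 2 alone 6 fell. The share of rises was close to that of all genes tested, and the rises numbered 0 to 2 when 1 litter at a time was left out. Cdo1, which opens cysteine breakdown to taurine and sulfate, was at 9.02, 8.73, 9.07, 9.32 and 9.10 in the exposed litters, against 9.60, 9.78, 10.05, 9.86 and 9.69 in the controls. The groups did not overlap, with a log2 change of -0.75 (SE 0.11, adjusted p = 0.000259). Cth, which makes cysteine from cystathionine, averaged 10.62 ± 0.18 in the exposed litters and 11.09 ± 0.15 in the controls, a change of -0.47 (adjusted p = 0.00554). Cps1, the entry enzyme of the urea cycle, averaged 11.77 ± 0.17 in the exposed litters and 12.23 ± 0.13 in the controls, a change of -0.47 (adjusted p = 0.00265). Without control litters 2, 3 and 5 the adjusted p was 0.071 for Cth and 0.0775 for Cps1, and with both tissues in the fit it was 0.286 for Cps1. Over 24 settings the ranges were 0.00175 to 0.071 for Cth and 0.000805 to 0.286 for Cps1.

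Tdo2, the first enzyme of tryptophan breakdown in liver, was at 6.95, 5.31, 7.53, 6.21 and 5.93 in the exposed litters, against 7.50, 8.03, 8.27, 7.12 and 8.78 in the controls. Exposed litter 3 reached the lower controls, and the fit gave a log2 change of -1.55 (SE 0.41, adjusted p = 0.0233). The adjusted p was 0.053 and 0.0582 without exposed litter 2 or 5, 0.0519 and 0.0599 without control litter 3 or 5 and 0.114 with the stomach covariate. When control litters 2, 3 and 5 were left out, the change was -0.93 (adjusted p = 0.404), and the range over 24 settings was 0.00791 to 0.404.

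Of 14 one-carbon and folate genes, 3 fell and none rose, with 1 fall without control litters 2, 3 and 5. Aldh1l2, the mitochondrial formyltetrahydrofolate dehydrogenase, was at 4.33, 4.52, 4.59, 4.26 and 4.66 in the exposed litters, against 5.34, 5.0, 4.90, 6.15 and 5.45 in the controls. Control litter 4 was highest and the groups did not overlap, with a log2 change of -0.90 (SE 0.20, adjusted p = 0.00793). Gamt, which completes creatine synthesis, averaged 8.07 ± 0.27 in the exposed litters and 8.59 ± 0.11 in the controls, a change of -0.52 (adjusted p = 0.00742). Its adjusted p was 0.208 without control litters 2, 3 and 5 and 0.0603 with the stomach covariate, in a range of 0.00187 to 0.208 over 24 settings. Of 25 genes of glucose and glycogen metabolism, 4 fell and 3 rose, with 2 and 0 without control litters 2, 3 and 5, and 1 rise without exposed litter 5 or control litter 2, 4 or 5. Gckr, the regulatory protein that holds glucokinase inactive, was at 7.98, 7.47, 7.63, 7.83 and 7.62 in the exposed litters, against 8.44, 8.62, 8.57, 8.24 and 8.51 in the controls. The nearest litters were exposed litter 1 (7.98) and control litter 4 (8.24), and the change was -0.77 (adjusted p = 0.000389).

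Drug-metabolizing enzymes changed in both directions, gene by gene. Of 27 cytochromes P450 of families 1 to 3, 5 rose and 4 fell, with 1 and 1 without control litters 2, 3 and 5. Without exposed litter 5, control litter 3 or control litter 4, 2 fell. Cyp2f2, a lung and liver P450 that activates naphthalene, was at 8.14, 8.52, 8.52, 7.82 and 8.63 in the exposed litters, against 9.73, 9.72, 9.71, 9.21 and 9.49 in the controls. Its groups were well apart, with a log2 change of -1.24 (SE 0.18, adjusted p = 0.000258). Cyp2e1, which oxidizes ethanol and other small molecules, averaged 11.58 ± 0.46 in the exposed litters and 12.25 ± 0.13 in the controls, with overlap of exposed litter 3 and a change of -0.68 (adjusted p = 0.0232). The adjusted p of this gene was 0.136 with both tissues in the fit, 0.184 without control litters 2, 3 and 5, 0.0517 without exposed litter 5 and 0.0526 without control litter 5, in a range of 0.00721 to 0.184 over 24 settings.

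The P450 genes that rose included Cyp3a11, a main target of PXR in mouse liver, at 12.69, 12.53, 12.60, 12.83 and 12.52 in the exposed litters, against 11.20, 11.24, 11.19, 11.81 and 11.89 in the controls. Its change was 1.17 (adjusted p = 3.71e-05) without overlap. Cyp2c29 was at 9.43, 7.57, 7.98, 8.11 and 7.48 in the exposed litters, against 4.11, 5.95, 5.99, 6.18 and 6.11 in the controls. Control litter 1 was far below the other controls and exposed litter 1 far above the other exposed litters, with a log2 change of 2.45 (SE 0.55, adjusted p = 0.00852). Cyp2j5, an epoxygenase of arachidonic acid, averaged 9.66 ± 0.35 in the exposed litters and 8.78 ± 0.12 in the controls, a change of 0.88 (adjusted p = 0.00284). With both tissues in the fit the adjusted p was 0.182 for Cyp3a11, 0.0809 for Cyp2c29 and 0.152 for Cyp2j5, and the values were 0.0511 (Cyp2c29) and 0.0533 (Cyp2j5) without control litters 2, 3 and 5. The ranges over 24 settings were 1.40e-05 to 0.182 for Cyp3a11, 0.000187 to 0.0809 for Cyp2c29 and 0.00155 to 0.152 for Cyp2j5.

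Of 40 glutathione enzymes and targets of the stress factor NRF2, 9 rose and 4 fell, with 3 and 2 without control litters 2, 3 and 5; without control litter 3 or control litter 4, 5 rose. Ephx1, microsomal epoxide hydrolase, was at 9.64, 9.07, 9.29, 9.74 and 9.26 in the exposed litters, against 7.82, 7.89, 7.81, 8.06 and 8.01 in the controls, with a log2 change of 1.48 (SE 0.13, adjusted p = 1.87e-06). Gstt2, a glutathione transferase of the theta class, averaged 9.78 ± 0.30 in the exposed litters and 8.54 ± 0.18 in the controls, a change of 1.25 (adjusted p = 1.36e-05). Gstt3, of the same class, averaged 7.22 ± 0.15 in the exposed litters and 6.32 ± 0.30 in the controls, a change of 0.90 (adjusted p = 0.00335). In the opposite direction, Gsta4, which conjugates the lipid peroxidation product 4-hydroxynonenal, was at 7.66, 7.84, 7.88, 7.46 and 7.52 in the exposed litters, against 8.28, 8.53, 7.99, 8.25 and 8.23 in the controls. None of these 4 genes overlapped between groups, and Gsta4 changed by -0.58 (adjusted p = 0.00163). Of 17 glucuronosyltransferases and sulfotransferases, 3 fell and 1 rose, with 1 and 0 without control litters 2, 3 and 5. Leaving out exposed litter 2, 3 or 5 or control litter 1, 2, 3 or 4 also left 1 fall. Sult1a1, a phenol sulfotransferase, averaged 10.03 ± 0.16 in the exposed litters and 10.60 ± 0.11 in the controls, a change of -0.57 (adjusted p = 0.00073).

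Carboxylesterases, which hydrolyse esters and lipids, mostly rose. Of 12 tested, 7 rose and 1 fell, with 5 and 0 without control litters 2, 3 and 5. Ces1d, a lipid hydrolase of the hepatocyte endoplasmic reticulum, was at 11.33, 10.80, 11.19, 11.50 and 11.24 in the exposed litters, against 9.93, 9.91, 10.17, 9.88 and 10.31 in the controls, with a log2 change of 1.17 (SE 0.14, adjusted p = 2.65e-05). Other members of the family changed more. Ces1f was at 8.54, 7.59, 8.58, 8.86 and 7.74 in the exposed litters, against 4.72, 4.31, 4.87, 4.40 and 5.96 in the controls, a change of 3.41 (adjusted p = 1.67e-05). Ces1g changed by 2.69 (adjusted p = 0.000139) and Ces1e by 2.68 (adjusted p = 1.08e-06), each without overlap. Ces1c, the carboxylesterase of mouse plasma, moved the other way, at 8.18, 7.66, 8.58, 8.36 and 7.96 in the exposed litters, against 8.76, 9.09, 9.18, 8.80 and 9.32 in the controls. Its change was -0.88 (adjusted p = 0.00385) without overlap. For this gene the adjusted p was 0.211 with both tissues in the fit and 0.18 without control litters 2, 3 and 5, in a range of 0.00217 to 0.211 over 24 settings. The Ces1 genes are close paralogues, and probes may catch more than 1 of them. The same holds for Mug1, Akr1c6, Akr1c20, Cyp2c29, Rdh16f2 and Ear3, which have close relatives in the mouse genome.

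Among the 20 largest falls, several were genes outside the liver pathways above. Lrtm1, a leucine-rich repeat membrane protein, was at 3.92, 3.55, 3.65, 3.39 and 3.81 in the exposed litters, against 5.13, 5.41, 4.92, 5.45 and 5.60 in the controls, a difference of -1.64. Fhad1, which carries a forkhead-associated domain, was at 4.23, 4.24, 4.57, 4.0 and 4.11 in the exposed litters, against 5.86, 5.81, 5.38, 6.14 and 5.98 in the controls, a difference of -1.61. No litter overlapped in either gene. Plppr1, a membrane protein related to lipid phosphate phosphatases, was at 6.25, 5.83, 5.74, 5.50 and 5.55 in the exposed litters, against 6.95, 6.95, 7.23, 7.25 and 6.97 in the controls, a change of -1.30 (adjusted p = 3.63e-05), which was -0.71 with probe sets averaged. Tbc1d30, with the domain of Rab GTPase-activating proteins, averaged 3.78 ± 0.35 in the exposed litters and 5.23 ± 0.46 in the controls, a difference of -1.44, and -0.89 with probe sets averaged. The filter level, the 40th percentile of all probe sets, was 4.18 to 4.23 over the 10 liver arrays at 10 and 0 mg/kg/day. All 5 exposed litters were below 4.23 for Lrtm1 and Tbc1d30, and some were for Fhad1, so that these 3 genes passed the filter mainly through other litters and the sizes of their differences are uncertain. Some exposed litters were also below 4.23 for Mug1, Rdh16f2, Abcg5 and Col4a5, given above, as was control litter 1, at 4.11, for Cyp2c29. The sizes of their changes are uncertain in the same way. Serpina4-ps1, annotated as a serpin pseudogene, was at 6.07, 5.63, 6.01, 5.13 and 6.23 in the exposed litters, against 7.47, 7.44, 7.17, 6.74 and 7.50 in the controls, a change of -1.45 (adjusted p = 0.000276). The lowest control was above the highest exposed litter for each of Lrtm1, Fhad1, Plppr1, Tbc1d30 and Serpina4-ps1.

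Acnat2, an acyl-CoA amino acid N-acyltransferase of peroxisomes, was at 6.10, 4.85, 6.03, 6.06 and 5.26 in the exposed litters, against 6.88, 7.33, 7.19, 7.05 and 7.09 in the controls. No exposed litter reached the controls, and litters 2 and 5 were lowest, with a log2 change of -1.45 (SE 0.27, adjusted p = 0.00228). With control litters 2, 3 and 5 removed, its adjusted p was 0.0928, in a range of 3.48e-05 to 0.0928 over 24 settings. Akr1c20, an aldo-keto reductase, averaged 6.66 ± 0.31 in the exposed litters and 7.85 ± 0.48 in the controls, with overlap of exposed litter 3 and control litter 3 and a change of -1.19 (adjusted p = 0.00361). Ear3, an eosinophil-associated ribonuclease of a mouse multigene family, was at 7.85, 6.12, 7.96, 7.66 and 6.42 in the exposed litters, against 8.57, 9.36, 8.26, 8.59 and 8.36 in the controls. Exposed litters 2 and 5 were lowest, with a log2 change of -1.43 (SE 0.33, adjusted p = 0.0115). The call missed the threshold at an adjusted p of 0.0641 with both tissues in the fit, 0.122 without control litters 2, 3 and 5 and 0.0556 with the stomach covariate, in a range of 0.00692 to 0.122 over 24 settings. Granulocyte markers moved in the same direction as Ear3. Their mean over 11 markers was 10.5 to 10.8 in the exposed litters and 10.9 to 11.1 in the controls, 5 of 11 were called lower, and 1 of 11 without control litters 2, 3 and 5. Litter by litter the order differed from that of Ear3. Exposed litter 2, lowest in Ear3, had the highest granulocyte mean of the exposed litters, at 10.81. Exposed litter 3, highest in Ear3, had the lowest, at 10.50. Other cell types leaned the same way, with a negative change in 11 of 12 macrophage and 11 of 12 endothelial markers. The part of granulocytes in the change of Ear3 was not tested.

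The largest fall in size was that of Cym, given above, at a log2 change of -2.82 (SE 0.87, adjusted p = 0.04999). It rested on control litters 2, 3 and 5, without which the change was -0.12 (adjusted p = 0.858). The adjusted p was also over the threshold without any single exposed litter, at 0.0756, 0.0678, 0.0828, 0.104 and 0.0885 for exposed litters 1 to 5, and at 0.0989, 0.116 and 0.0927 without control litter 2, 3 or 5. It missed the threshold in 19 of 23 settings, in a range of 0.00607 to 0.858. Atp4a, the proton pump of gastric acid secretion, was highest in control litters 2 and 3, at 7.02 and 5.48. Control litter 5, at 4.97, lay below exposed litter 2, at 5.00.

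Outside lipid oxidation, the lists with the highest share of rises were those of sterol synthesis, fatty acid synthesis and the carboxylesterases above. Of 20 cholesterol synthesis and uptake genes, 16 rose and none fell, and 16 also rose without control litters 2, 3 and 5. Lss, which closes the sterol ring, was at 10.50, 10.46, 10.31, 10.05 and 10.20 in the exposed litters, against 9.34, 9.26, 9.30, 8.97 and 9.34 in the controls, with a log2 change of 1.06 (SE 0.10, adjusted p = 2.70e-06). Hsd17b7, which acts later in the same pathway, averaged 10.07 ± 0.15 in the exposed litters and 9.10 ± 0.14 in the controls, a change of 0.98 (adjusted p = 1.08e-05). Of 23 genes that make fatty acids or triglyceride, 14 rose and 1 fell, with 12 and 1 without those litters. Me1, malic enzyme, which supplies NADPH for that synthesis, averaged 9.0 ± 0.22 in the exposed litters and 7.23 ± 0.28 in the controls, a change of 1.76 (adjusted p = 1.09e-06). For scale, 27 of 31 beta-oxidation genes rose and none fell, and their largest change was that of Ehhadh, at 3.30.

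Among regulators, rises outnumbered falls. Of 28 nuclear receptors 4 rose and 1, Esr1, fell, with 2 and 0 without control litters 2, 3 and 5. Nr1i2, which encodes PXR, was at 6.96, 6.76, 6.62, 7.10 and 7.24 in the exposed litters, against 6.07, 6.10, 5.91, 6.31 and 6.14 in the controls, with a log2 change of 0.83 (SE 0.11, adjusted p = 8.75e-05). Of 19 hepatocyte transcription factors 3 rose and 1 fell, with 3 and 0 without those litters. On both lists the share of falls was close to that of all genes tested, 5.22%, while 5.3% of all genes were called higher. Creb3l3, a liver factor tethered in the endoplasmic reticulum, averaged 9.68 ± 0.21 in the exposed litters and 8.94 ± 0.10 in the controls, a change of 0.74 (adjusted p = 0.000113). Cebpb, a factor of the acute phase response, was at 8.67, 8.61, 8.63, 8.59 and 8.60 in the exposed litters, against 8.02, 8.12, 8.20, 7.88 and 8.07 in the controls. The exposed litters were almost level and above every control, with a change of 0.56 (adjusted p = 0.00143). Tbx3, a T-box factor of liver development, averaged 5.92 ± 0.24 in the exposed litters and 5.06 ± 0.27 in the controls, a change of 0.86 (adjusted p = 0.000394), which was 0.48 with probe sets averaged. None of these factors had overlapping groups.

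Of 14 circadian clock genes 3 rose and 2 fell, with 2 and 0 without control litters 2, 3 and 5. Nr1d2, a repressor of the clock, was at 7.38, 7.17, 6.96, 7.84 and 7.50 in the exposed litters, against 5.92, 6.5, 6.39, 6.60 and 6.49 in the controls, a change of 0.99 (adjusted p = 0.00128). Hlf, an output factor of the clock, averaged 7.27 ± 0.18 in the exposed litters and 6.77 ± 0.09 in the controls, a change of 0.50 (adjusted p = 0.00228). Per2, a core repressor, was at 5.60, 6.06, 5.43, 5.37 and 5.36 in the exposed litters, against 6.65, 6.49, 6.35, 6.04 and 6.42 in the controls. Exposed litter 2 just overlapped control litter 4, and the change was -0.83 (adjusted p = 0.00247). It was -0.42 with probe sets averaged, and its adjusted p was 0.0823 without control litters 2, 3 and 5, in a range of 1.46e-05 to 0.0823 over 24 settings. The time of day of each collection is not given in the sources used here.

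Some protein quality control genes rose and none on these lists fell. Of 18 heat shock proteins and chaperones, 4 rose and none fell, with 3 rises without control litters 2, 3 and 5. The mitochondrial chaperonins Hspd1 and Hspe1 changed by 0.37 (adjusted p = 0.000595) and 0.43 (adjusted p = 7.58e-05), and neither overlapped between groups. Hspa1b, an inducible HSP70, averaged 6.52 ± 0.37 in the exposed litters and 5.67 ± 0.43 in the controls, a change of 0.86 (adjusted p = 0.0159). Its adjusted p was 0.0957 without control litters 2, 3 and 5, 0.116 with the stomach covariate and 0.0526 with the pancreas covariate, in a range of 0.00154 to 0.116 over 24 settings. Of 33 proteasome genes, 7 rose and none fell, and the changes of the 33 lay between 0.01 and 0.49, with a median of 0.11 beside -0.02 over all genes tested. The rises numbered 2 without control litters 2, 3 and 5 and 3 without exposed litter 1, exposed litter 3 or control litter 3. Psmd4, a ubiquitin receptor of the proteasome, was at 10.04, 9.83, 9.88, 10.11 and 9.82 in the exposed litters, against 9.44, 9.39, 9.40, 9.46 and 9.54 in the controls, a change of 0.49 (adjusted p = 0.000131). Psmc4, an ATPase of the same particle, changed by 0.29 (adjusted p = 0.0125), with overlap of control litter 5.

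Endoplasmic reticulum and stress genes leaned the other way, with 4 falls and 2 rises among 25, and 1 and 1 without control litters 2, 3 and 5. Without exposed litter 3 or control litter 2, 2 fell. Xbp1, a factor of the unfolded protein response and of secretory capacity, was at 10.21, 10.13, 10.27, 10.08 and 10.11 in the exposed litters, against 10.45, 10.47, 10.59, 10.38 and 10.41 in the controls, a change of -0.30 (adjusted p = 0.00331) without overlap. It was -0.18 (adjusted p = 0.0627) with probe sets averaged, and its adjusted p was 0.106 without control litters 2, 3 and 5, in a range of 0.000932 to 0.106 over 24 settings. Dnajc3, a chaperone of that compartment, averaged 8.55 ± 0.11 in the exposed litters and 8.98 ± 0.08 in the controls, a change of -0.43 (adjusted p = 0.00179). Atf3, a stress-induced factor, averaged 5.34 ± 0.19 in the exposed litters and 4.83 ± 0.18 in the controls, a change of 0.51 (adjusted p = 0.00288).

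Smaller groups and single genes complete the rises. Alas1, the first enzyme of heme synthesis outside red cells, was at 8.59, 8.58, 8.51, 8.74 and 8.65 in the exposed litters, against 8.17, 8.21, 7.95, 8.25 and 8.13 in the controls, a change of 0.47 (adjusted p = 0.000203). Aldh1a7, an aldehyde dehydrogenase of the retinal dehydrogenase family, was at 8.89, 8.78, 9.48, 9.40 and 9.17 in the exposed litters, against 6.24, 6.95, 5.88, 5.77 and 7.49 in the controls, a change of 2.68 (adjusted p = 1.48e-05). Every exposed litter exceeded every control in both genes. Cxcl10, a chemokine induced by interferon, was at 8.73, 7.16, 7.41, 8.22 and 7.0 in the exposed litters, against 5.24, 5.11, 5.49, 4.74 and 5.54 in the controls, with a log2 change of 2.48 (SE 0.33, adjusted p = 0.000121). On its list 2 of 28 interferon and chemokine genes rose and 1 fell, shares close to those of all genes tested. Without control litters 2, 3 and 5 the counts were 1 and 0. Leaving out 1 litter at a time gave 1 to 4 rises, and 0 or 1 fall.

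Some housekeeping groups held no call. None of 39 respiratory chain and ATP synthase genes and none of 25 cytosolic ribosomal protein genes was called by limma, and 5 and 0 of them had an unadjusted p under 0.05, beside 3178 of all 13269 genes tested. Their medians were 0.002 and 0.007 on the log2 scale. Of 39 cell cycle and DNA replication genes, 6 fell and none rose, 38 had a negative change, and the median was -0.20. None of these was called without control litters 2, 3 and 5, and leaving out 1 litter at a time gave 2 falls (without exposed litter 3, exposed litter 4 or control litter 2) to 13. Among blood cell markers, none of 10 erythroid markers was called and 3 had an unadjusted p under 0.05, but 8 had a negative change and their median was -0.18. All 11 granulocyte markers were lower at an unadjusted p under 0.05. The part of blood-forming cells in the cell cycle changes was not tested. Among the hepatocyte markers 3 of 11 fell, with none without control litters 2, 3 and 5, and none rose. The falls included Cps1, given above, and Apoa1, which is also on the apolipoprotein list, so they are no separate readout of hepatocyte content.

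The 5 mg/kg/day litters, set against the same 5 controls, allow values of each dose to be given side by side; since the controls are shared, the agreement between doses is no independent result. Of the 692 genes lower at the higher dose, 182 were also called lower at 5 mg/kg/day, and the median log2 change of the 692 was -0.23 there, beside -0.37 at the higher dose. A smaller median at 5 mg/kg/day is partly set by the choice of genes, which were called at 10 mg/kg/day. Of the 703 genes that rose at the higher dose, 468 were also called higher at 5 mg/kg/day, and the medians of the 703 were 0.40 at the lower and 0.45 at the higher dose. For Cyp39a1 the changes were -0.95 at the lower and -1.64 at the higher dose, for Mbl2 -0.74 and -1.25, and for Apoa5 -0.64 and -1.55. Enho (-1.03 and -1.31), Fst (-0.72 and -0.84) and Pcolce (-0.51 and -0.65) had nearer values at the 2 doses. The fall was smaller at 5 mg/kg/day for 650 of the 692 genes and not for the rest, such as Col4a5 (-1.02 and -0.93). The direct comparison of 10 with 5 mg/kg/day, whose means hold no control litter but whose estimate of the spread is shared with them, called 1 of 13269 genes (0.00754%), with 1035 genes at an unadjusted p under 0.05. That gene was Lims2, at 6.65, 6.56, 6.51, 6.70 and 6.53 in the 10 mg/kg/day litters, against 7.09, 7.27, 7.17, 7.19 and 7.15 in the 5 mg/kg/day litters. The difference was -0.58 (adjusted p = 0.0273), and the 2 doses did not overlap. No gene was called when 10 mg/kg/day litter 1, 2, 3 or 5 or 5 mg/kg/day litter 2, 3, 4 or 5 was left out in turn, and leaving out 1 litter at a time gave between 0 and 4 calls.

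**Figure D5:**
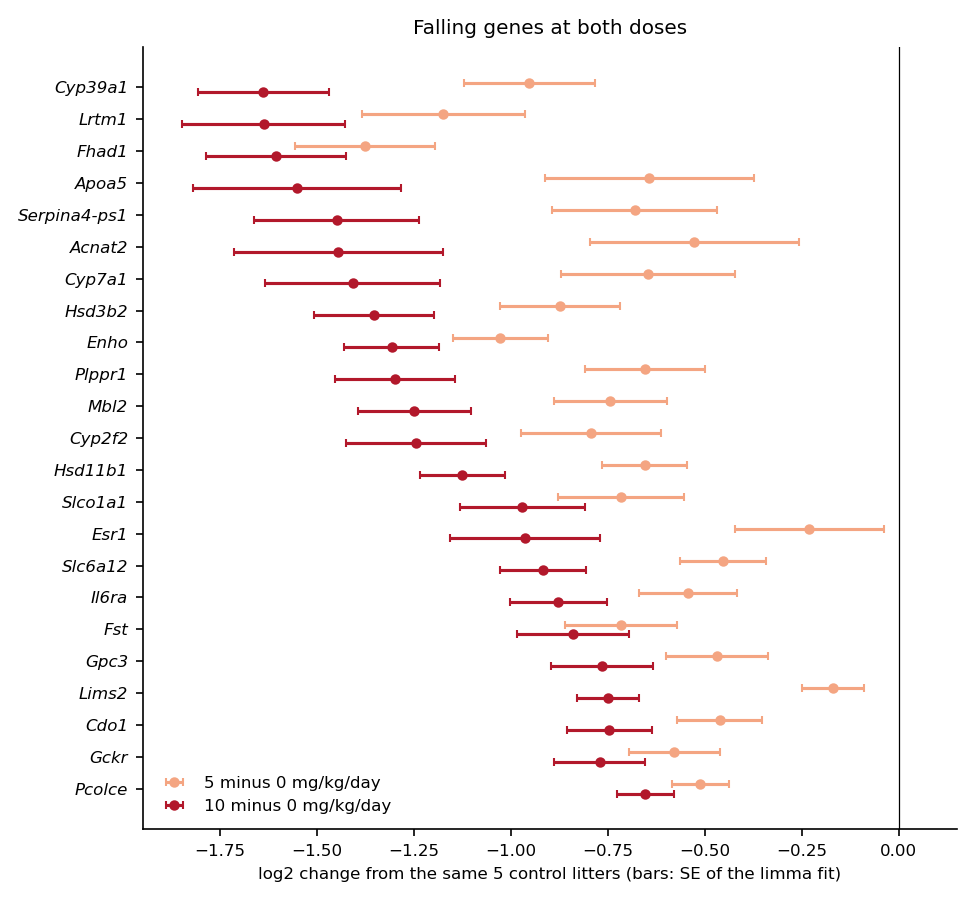
Log2 change from the same 5 control litters for 23 genes that fell. Pale upper points are the 5 mg/kg/day litters and dark lower points the 10 mg/kg/day litters, with bars of 1 SE of the limma fit. Each dark point lies to the left of its pale point; the gap is wide for Apoa5 and Esr1 and small for Fst and Pcolce.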

How the data were processed

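RNA from 15 fetal livers and 15 fetal lungs, each a pool of 1 litter, was hybridised to Affymetrix mouse 430_2 arrays. The authors deposited log2 values per probe set, summarised with RMA per the submitters' processing notes, and these were used as deposited. RMA shrinks differences of dim probe sets and shares its normalization across arrays, and its version is not given in the sources used here. Array data have no read depth, and the number of litters limits the precision. Of 45101 probe sets, 34945 carried 1 gene symbol in GEO's platform annotation, 932 several and 9160 none. Each gene took the probe set whose mean over the 30 arrays was highest. It was tested if 5 or more of the 15 liver arrays had that probe set over the array's 40th percentile. limma 3.58.1 in R 4.3.3 (lmFit and eBayes) was fitted to all 15 liver arrays with 1 mean per dose, and p-values were adjusted by Benjamini-Hochberg over 13269 genes. An adjusted p under 0.05 made a call.

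Changes and differences are on the log2 scale. Genes were named from the 20 largest falls and 10 largest rises whose exposed litters all lay on 1 side of the control mean, from up to 4 called members per list and direction, and from 16 genes fixed by name; values are printed for 101 of the 174 genes this gave. The members and lists were chosen with earlier results of these data known. Promoter sequences came from RefSeq on GRCm38.p6. Replicate numbers did not pair litters across groups, since same-numbered litters correlated between -0.134 and 0.125 in their deviations. The alternatives were no filter and a 60th percentile filter, quantile normalization, median centring, array weights, the 2 groups alone, both tissues in 1 fit, a trended and robust spread, a replicate block, a sex covariate, probe sets averaged or tested one by one, covariates for stomach and pancreas markers, and litters left out.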

Additional observations from a re-analysis of the deposited data

Results flagged for a closer look

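In 8 of 202 groups of 5 litters tested for the 101 genes named above, 1 litter lay further from the rest than Dixon's critical value of 0.71 allows; chance flags about 1 in 20 groups. At 10 mg/kg/day these were Itih4 in litter 1, at 11.76 with the next litter at 11.45, Ceacam1 in litter 3, at 8.16 with the next at 8.24, and Cym in litter 4, at 4.23 with the next at 5.04. Among the controls, litter 1 was high for Azgp1, at 9.7 with the next at 9.14, and low for Enho, at 7.69 with the next at 7.95, and for Cyp2c29, at 4.11 with the next at 5.95. Control litter 3 was high for Apoa5, at 10.68 with the next at 9.79, and control litter 4 was low for Lss, at 8.97 with the next at 9.26. The calls of Azgp1 and Cym without single litters are given with those genes above.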

How the results depend on the processing

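All 101 named genes kept their direction under the alternatives that give 1 value per gene, and 64 kept their call in all of these. Tested probe set by probe set, Col4a5 and Egfr each had a probe set that moved in the opposite direction. The gene calls, 703 higher and 692 lower, ranged from 546 to 677 higher and from 455 to 661 lower when 1 litter of either group was left out. Testing every probe set on its own gave 1124 higher and 917 lower. Over probe sets, leaving out 1 litter gave 898 to 1117 higher and 634 to 882 lower. Without control litters 2, 3 and 5, 364 genes were called higher and 176 lower, and 555 and 210 probe sets. With the stomach covariate these were 455 and 364 genes and 731 and 458 probe sets, and with the pancreas covariate 405 genes and 583 probe sets were lower. Median centring gave 787 higher and 535 lower. Among the members of all gene lists, 123 higher and 117 lower, the counts were 81 and 35 without control litters 2, 3 and 5, 69 lower with the stomach covariate, and 99 to 122 higher and 82 to 110 lower when 1 litter was left out. For 10 against 5 mg/kg/day, 1 call by limma became 0 over probe sets (2000 at an unadjusted p under 0.05) and 6 with both tissues in the fit, and 0 to 4 when 1 litter was left out.

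With the replicate number as a block, 612 genes were higher and 588 lower, of which 590 and 536 were among the original calls, and 1052 and 819 probe sets; no gene differed between 10 and 5 mg/kg/day by limma, with 1043 at an unadjusted p under 0.05. For the named genes the block ended the calls of Mug1 (adjusted p = 0.0754) and Cym (adjusted p = 0.0509) and no other. The cause of these differences was not tested, except that leaving out litters lowers the number of samples by construction. The 5-litter groups limit the precision, as does the spread of dim probe sets.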

Other observations

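Among probe sets with no symbol or several symbols, 4284 passed the filter, and 140 were called higher and 86 lower by limma at 10 against 0 mg/kg/day. Of all 27901 probe sets above that filter, 4.03% were called higher and 3.29% lower. The largest called falls among the 4284 were -2.76 (adjusted p = 0.00272) and -1.93 (adjusted p = 0.000467). The largest called rises were 3.40 (adjusted p = 3.04e-09) and 2.61 (adjusted p = 5.46e-09). These probe sets are outside the gene counts above. The lowest exposed litter for the 692 genes called lower was litter 1 in 78 genes, litter 2 in 158, litter 3 in 158, litter 4 in 159 and litter 5 in 139. Over all 13269 genes tested, these counts for litters 1 to 5 were 2342, 2822, 2535, 2920 and 2650. For the 703 genes called higher, the highest exposed litter was litter 1 in 163 genes, litter 2 in 61, litter 3 in 105, litter 4 in 287 and litter 5 in 87. Over all genes tested, the counts of the highest litter were 2916, 2909, 2011, 2921 and 2512 for litters 1 to 5. Of 80 genes named by the rule with a further tested probe set, 5 (Adamts5, Cenpf, Col4a5, Egfr and Rpl35) had a probe set that moved in the opposite direction.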
